A study of Rattus norvegicus with 20 samples.

Results

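The comparison described here concerns soft memory, the trace that growth on a soft surface leaves in mesenchymal stromal cells (MSCs) after they have been moved to a stiff one. Rat bone marrow MSCs were grown for 3 weeks on 2 kPa silicone and then for 2 weeks on 100 kPa silicone (3w2→2w100), and they were set against MSCs grown for 5 weeks on 100 kPa (5w100). The 4 libraries, 2 in each group, were chosen by their labels out of 20 bulk RNA-seq libraries in 8 groups. At harvest both groups were on 100 kPa, so that they differed in the surface of the first 3 weeks and not in the surface of the last 2. Only 3w2→2w100 changed surface, and its cells had 2 weeks on 100 kPa against 5 in 5w100. Effects of these cannot be told apart from those of the priming. The labels name no transfection, drug or altered allele for either group. All cells came from female Wistar rats and were seeded on gelatin-coated silicone and passaged every week in medium with fetal bovine serum. Each isolate came from 1 rat, but the labels do not say which rat stands behind which replicate number.

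MSCs are the supporting cells of the bone marrow, which can become bone or fat cells and which take part in wound repair. On scar-stiff surfaces they turn into myofibroblasts, contractile cells that assemble α-smooth muscle actin into stress fibers and lay down the collagen-rich matrix of scars. Cells that keep features of an earlier surface after it has been exchanged are said to carry a mechanical memory. The homeobox factor HOXA11 and the zinc finger factor SALL1 have been tied to the soft state, and the zinc finger factor GATA6 to the stiff state.

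The deposited table pairs no Ensembl identifier with a gene symbol, and 0 of its 30560 identifiers matched a symbol in the reference tables used here. The genes are therefore described by identifier for 4 of them and as groups for the others, without roles, and MSC and myofibroblast markers could not be checked. The other libraries used for context were 5w2 (5 weeks on 2 kPa) and 3w100→2w2 (3 weeks on 100 kPa, then 2 weeks on 2 kPa), with 2 each, and 3w2 and 3w100 (3 weeks on one surface), with 3 each. Counts per library were 17906049 and 17543926 in 3w2→2w100 and 18843735 and 18590110 in 5w100. Values are given as CPM, the reads of a gene scaled to a library size that edgeR's TMM method had adjusted, and tests are edgeR's quasi-likelihood test over 14034 genes that passed a filter on low counts, with Benjamini-Hochberg adjustment and a threshold of 0.05. In bulk RNA a lower level can mean fewer cells with a transcript or less of it per cell, and the data cannot tell these apart.

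On the stiff surface 3w2→2w100 differed from 5w100, with more called genes lower than higher in soft-primed MSCs. In the model without the replicate number, 8 genes (0.057% of those tested) passed the adjusted threshold, of which 7 were lower and 1 was higher in 3w2→2w100 than in 5w100. A block for the replicate number compares same-numbered libraries with each other. On all 20 libraries it treats a number as the same at 1, 3 and 5 weeks, and pairing was checked only within each time. In this blocked fit 358 genes (2.55%) passed. Of these, 275 (1.96%) were lower and 83 (0.591%) were higher in soft-primed MSCs. With the block on only the 8 libraries of 5 weeks, 245 of 13112 genes passed (1.87%), 157 lower (1.2%) and 88 higher (0.671%), a weaker lean. The block on all libraries called all 8 genes that were called without it. Before adjustment, 1972 genes (14.1%) had a p below 0.05 without the block, 1240 lower (8.84%) and 732 higher (5.22%). The lower side was thus the larger one under each of these rules. The lean lay in the genes of larger change and was not general. Over all 14034 tested genes the median log2 fold change was 0. In both same-numbered pairs of libraries 4340 genes were higher and 4326 lower, at any size of difference.

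The count of called genes depended on single libraries. Without the block it was 193 when 5w100 replicate 1 was left out and 0 when 5w100 replicate 2, 3w2→2w100 replicate 1 or 3w2→2w100 replicate 2 was left out, with 890, 1651 and 2152 genes at an unadjusted p below 0.05 in these 3 fits. With the block, leaving out the same 4 libraries gave 461, 0, 1 and 1 called genes. These 4 blocked fits were chosen after the values were seen. A fit on only the 4 libraries called 0 genes, with 834 at an unadjusted p below 0.05, whereas DESeq2 on all libraries called 449 (3.2%), of which 361 were lower and 88 higher in 3w2→2w100. Of the 358 genes called with the block, DESeq2 called 266 in the same direction, the block on only the 5-week libraries 140, and 107 were called in all 3 fits.

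The gene with the smallest p among those that rose was ENSRNOG00000007319. Its level was 166 and 176 CPM after the switch from soft to stiff and 80.5 and 77.7 CPM in 5w100. Both soft-primed libraries stood above both stiff-grown ones, and the members of each pair lay close together. Libraries without overlap were a condition for naming a gene here, so each named gene has them. The log2 fold change was 1.11 (SE 0.16), a 2.16-fold higher level, with an adjusted p of 0.0183 in edgeR and of 0.00228 in edgeR with the block. At 1 week its mean was 122 ± 14.2 CPM on the soft and 112 ± 6.23 CPM on the stiff surface (SD, n = 3 each). At 3 weeks it was 132 ± 24.9 CPM in 3w2 and 110 ± 11.7 CPM in 3w100 (SD, n = 3 each), where the libraries overlapped. The 2 arms thus stood further apart 2 weeks after the switch than before it, the soft-primed mean higher and the stiff-grown mean lower than at 3 weeks. The change of the difference since the switch was 0.85 on the log2 scale (SE 0.20), with an unadjusted p of 0.000674 and an adjusted p of 1.00 in edgeR.

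ENSRNOG00000039048 was the next by p among the higher genes and did not pass without the block. It had 14.2 and 20.3 CPM in 3w2→2w100 and 0.401 and 1.42 CPM in 5w100, from 243 and 336 counts against 7 and 26. The groups did not overlap, and the stiff-grown libraries held few reads of it. The log2 fold change was 4.22 (SE 0.78), with an adjusted p of 0.0779 in edgeR and of 0.0223 in edgeR with the block. At 3 weeks the means were 17.7 ± 11.1 CPM in 3w2 and 2.86 ± 1.00 CPM in 3w100 (SD, n = 3 each). Between 3 and 5 weeks the soft-primed mean went to 17.3 ± 4.33 CPM on 100 kPa, and the stiff-grown mean was 0.912 ± 0.723 CPM (SD, n = 2 each). The spread of the 3w2 libraries was wide, and the change since the switch was 1.59 on the log2 scale (SE 0.92, unadjusted p = 0.107 in edgeR).

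Among the genes that fell, ENSRNOG00000026053 had the highest level in 5w100 of the 8 called genes. Its level was 165 and 152 CPM in 3w2→2w100 and 860 and 1160 CPM in 5w100. The 4 libraries carried 2522 to 21188 reads of it, and the lower stiff-grown library was far above the higher soft-primed one. The log2 fold change was -2.67 (SE 0.35), a 6.37-fold lower level, with an adjusted p of 0.0183 in edgeR and of 0.00378 in edgeR with the block. At 3 weeks, the time of the switch, the 3w2 libraries stood above this level. They come from other cultures than those that were moved, which were not measured at the switch. The mean was 465 ± 170 CPM in 3w2 and 794 ± 180 CPM in 3w100 (SD, n = 3 each), and the 3w2 libraries had 652, 319 and 424 CPM, all above both 3w2→2w100 libraries. The mean in 3w2→2w100, 159 ± 8.63 CPM, stood beside 169 ± 17.7 CPM in 5w2 (SD, n = 2 each), whose cells had not been on 100 kPa. The change of the difference since the switch was -1.90 on the log2 scale (SE 0.43, unadjusted p = 0.000474 and adjusted p = 1.00 in edgeR).

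ENSRNOG00000052498 had 92.9 and 86.8 CPM in 3w2→2w100 and 222 and 238 CPM in 5w100, again without overlap. The log2 fold change was -1.36 (SE 0.19), with an adjusted p of 0.0183 in edgeR and of 0.00555 in edgeR with the block. At 3 weeks the log2 difference was -0.85, when 3w2 had 109 ± 24.7 CPM and 3w100 had 197 ± 29.4 CPM (SD, n = 3 each). At 1 week the means were 97.7 ± 12.6 CPM on the soft and 117 ± 12.1 CPM on the stiff surface (SD, n = 3 each). The soft-primed libraries thus lay within the range of the week 1 libraries on the soft surface, and both stiff-grown libraries lay above every week 1 library.

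**Figure D1:**
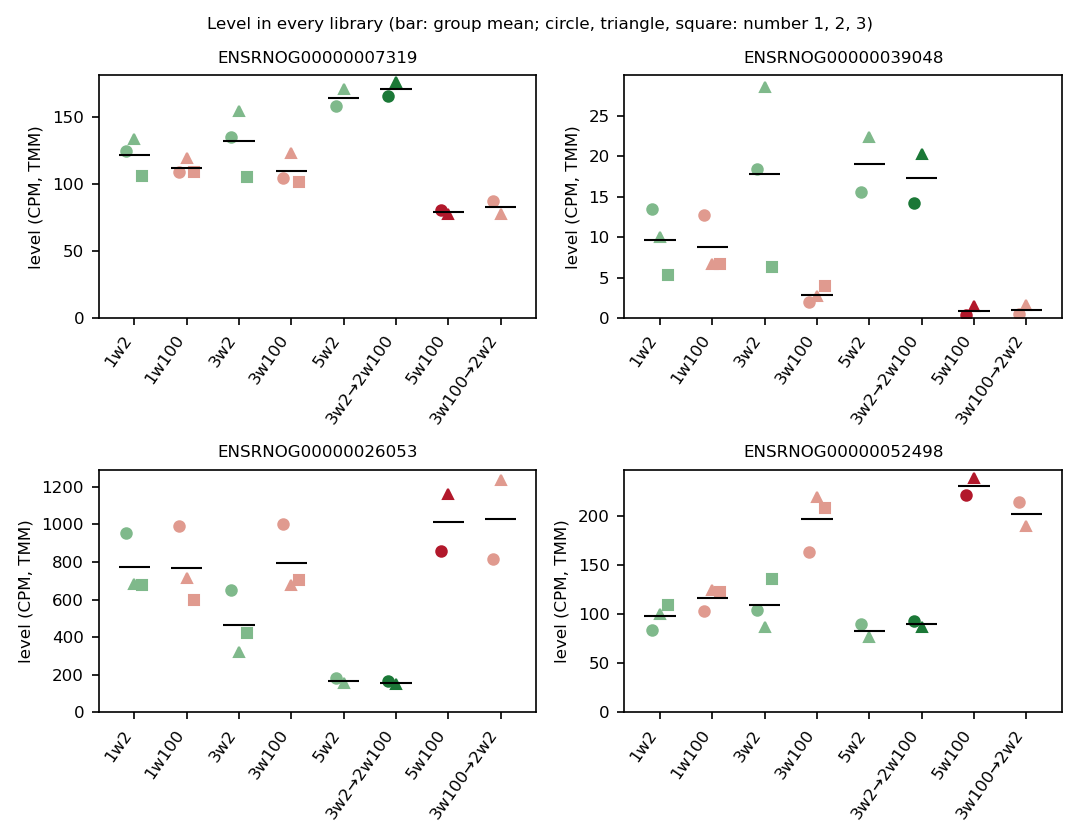
Level in CPM (linear axis from 0) of the 4 genes in all 20 libraries of the 8 groups, with 1 point per library, the shape giving the replicate number and the bar the group mean. For ENSRNOG00000026053 the 3w2→2w100 libraries sit at 165 and 152 CPM, beside those of 5w2, and the 5w100 libraries at 860 and 1160 CPM, beside those of 3w100→2w2.

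The other 5 called genes were all lower in soft-primed MSCs and less abundant. In 4 of them the soft-primed libraries held 16 to 82 counts and the stiff-grown libraries 125 to 377. Their group means were 1.13 to 4.54 CPM in 3w2→2w100 and 7.03 to 18.4 CPM in 5w100, with log2 fold changes from -2.92 to -2.02 and adjusted p from 0.0183 to 0.0386 in edgeR. At 3 weeks the same 4 genes had log2 differences of only -0.98 to -0.28 between 3w2 and 3w100, with means of 4.69 to 11.3 CPM in 3w2. The last gene had 1 and 0 counts in 3w2→2w100 and 26 and 53 counts in 5w100. Since as many as 3 reads cannot be told from none by counting error alone, its level in the soft-primed cells was at the limit of detection and no fold is given. Its mean was 0.887 CPM in 3w2, 2.63 CPM in 3w100 and 2.19 CPM in 5w100. All 7 called genes that were lower had a 3w2→2w100 mean below their 3w2 mean, and 5 of the 7 had a 5w100 mean above their 3w100 mean.

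Genes with almost no counts on one side were found in one direction only, and they were few. In 11 of the 14034 tested genes each 3w2→2w100 library had at most 1 count while both 5w100 libraries had 10 or more. In 3 of these both soft-primed libraries had 0. The reverse, at most 1 count in each stiff-grown library and 10 or more in both soft-primed ones, was found for 0 genes. The 5w100 libraries also had larger totals and a count for more genes, 15754 and 16274 against 15483 and 15406 in 3w2→2w100. Whether this favored the direction was not tested.

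The lean towards lower expression varied with abundance. Among genes with a mean below 1 CPM over the 20 libraries, the block called 17 lower and 3 higher of 1796. From 1 to 10 CPM it called 100 lower and 23 higher of 3602, and from 10 to 100 CPM 118 lower and 43 higher of 6885. At 100 CPM or more it called 40 lower and 14 higher of 1751. Lower calls outnumbered higher ones in each of these 4 bins, although the share of genes called was smallest, 1.11%, in the lowest bin. At an unadjusted p below 0.05 without the block the lean was smaller from 10 to 100 CPM, with 476 lower and 425 higher genes, and at 100 CPM or more, with 147 and 103, than below 1 CPM, with 208 and 60, or from 1 to 10 CPM, with 409 and 144. The replicates of a group also differed most below 1 CPM, by a median of 0.64 on the log2 scale in 3w2→2w100 against 0.24 at 100 CPM or more.

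The called genes differed in size between the sides. The median log2 fold change with the block was -1.85 for the 275 lower genes and 1.00 for the 83 higher ones. In 24 of the lower genes neither soft-primed library had more than 3 counts. With these set to the bound that 3 counts give, the median of the lower genes was -1.84. Over all tested genes, 1183 had a log2 fold change below -1 and 490 above 1, and of these 861 and 342 had libraries that did not overlap. Without overlap and beyond 2 on the log2 scale there were 462 lower and 89 higher genes. These counts had no limit on level and include genes with few or no reads on one side, whose folds are uncertain. The SD of the log2 fold change was 1.73 below 1 CPM and 0.43 at 100 CPM or more. Non-overlap by itself was common, since 5069 genes (36.1%) had it, 2630 lower (18.7%) and 2439 higher (17.4%). Of the 358 genes called with the block, 351 did not overlap.

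**Figure D2:**
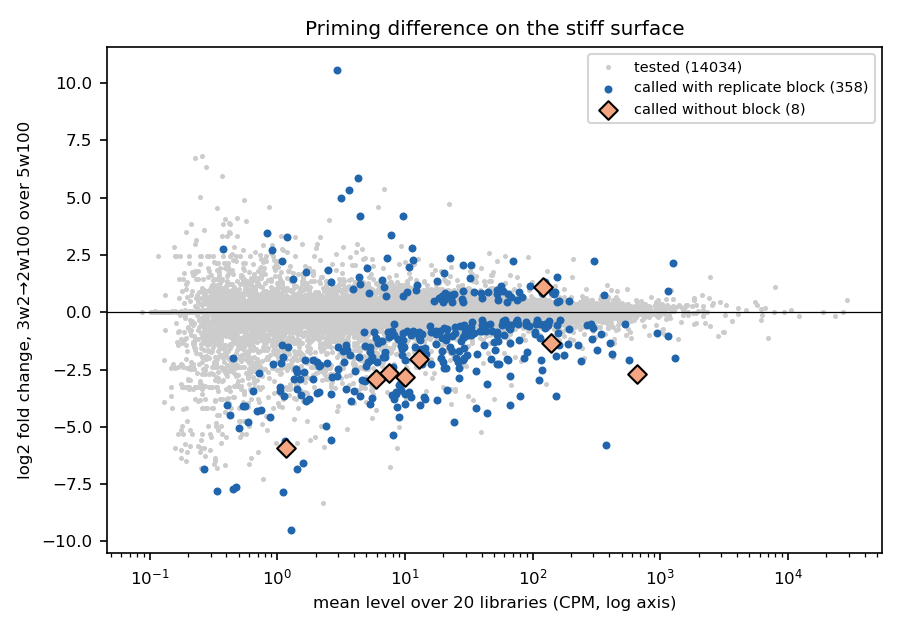
Log2 fold change of 3w2→2w100 over 5w100 against the mean level over 20 libraries (CPM, log axis), with 1 point per tested gene (14034, grey), the 358 genes called with the replicate block in blue and the 8 called without it as diamonds. Points below 0 are lower in soft-primed MSCs, and 7 of the 8 diamonds lie there.

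The priming difference was spread more widely in one of the numbered pairs. Across the 14034 genes the log2 ratio of 3w2→2w100 to 5w100 had an SD of 0.63 in replicate 1 and 0.99 in replicate 2. The ratios of the 2 pairs correlated with r = 0.42 across genes, which are not independent replicates, and with r = 0.16 when the numbers were crossed. In replicate 1, 938 genes were lower and 451 higher by more than 1 on the log2 scale. In replicate 2 these numbers were 1340 and 897. Both pairs had 511 genes lower and 146 higher beyond this size, and 127 genes passed it in opposite directions. The genes called with the block had the same direction in both pairs in 358 of 358 cases, as the block selects for, with a median size of 1.32 in replicate 1 and 1.64 in replicate 2.

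**Figure D3:**
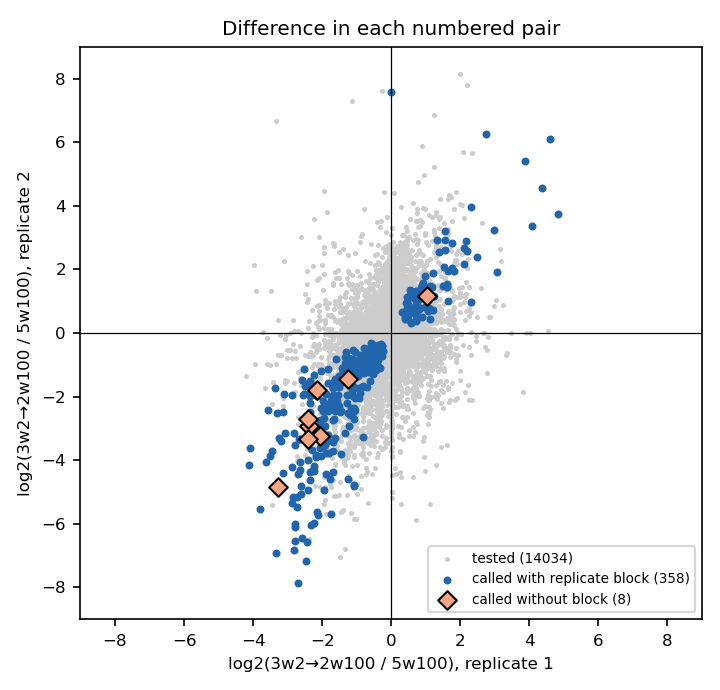
Log2 ratio of 3w2→2w100 to 5w100 in replicate 1 (x axis) and replicate 2 (y axis), with 1 point per tested gene, the 358 genes called with the block in blue and the 8 called without it as diamonds. The cloud is wider along the y axis (SD 0.99) than along the x axis (SD 0.63), and the called genes lie in the quadrants where both pairs have the same sign.

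The wider ratios went together with 5w100 replicate 2. In Euclidean distance over the log2 CPM of all tested genes, it stood 118 and 123 from the soft-primed libraries and 92.4 from 5w100 replicate 1. 5w100 replicate 1 stood closer to the same-numbered soft-primed library, at 75.5, than to its own replicate, and the distance between the 3w2→2w100 libraries was 86.4. Each of the 4 libraries stood closer than any of these distances, at 38.7 to 40.4, to the library with the same number and the same priming surface that ended on the other surface.

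The genes that differed on the stiff surface were followed in the other libraries. Over the 275 genes called lower, the median level relative to the mean at 1 week, on the log2 scale, was -0.86 and -0.77 in replicates 1 and 2 of 3w2→2w100 and -0.71 and -0.73 in those of 5w2. It was 0.38 and 0.81 in those of 5w100 and 0.35 and 0.77 in those of 3w100→2w2. For these genes the soft-primed libraries stood together below the week 1 level and the stiff-primed ones above it, whichever surface they ended on. That 3w2→2w100 lay below 5w100 follows from how the genes were chosen. The libraries of 5w2 and 3w100→2w2 deviated together with those of the same priming and number, so they are no independent repeat. At 3 weeks the medians were -0.19, -0.42 and 0.24 in the 3w2 libraries and 0.28, 0.58 and 0.44 in the 3w100 libraries. 3w2 replicate 3 stood apart from the other 3w2 libraries and had a value close to that of 3w100 replicate 1.

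The called genes had medians away from 0 in both arms between week 3 and week 5. For the 275 lower genes, the median difference of 3w2→2w100 from 3w2 was -0.68 on the log2 scale, and 249 of them were lower in 3w2→2w100. The median difference of 5w100 from 3w100 was 0.20, and 192 of 275 genes were higher. Over all tested genes these medians were -0.01 and -0.01. Of all 14034 genes, 7216 were lower in 3w2→2w100 than in 3w2, and 6624 were higher in 5w100 than in 3w100. For the 275 lower genes the median difference of 5w2 from 3w2 was -0.66, in cells that stayed on 2 kPa. Over replicates 1 and 2 only, an alternative chosen after the values were seen, the medians were -0.45 for the soft-primed and 0.19 for the stiff-grown arm. The 83 higher genes had medians of 0.31 for the soft-primed and -0.24 for the stiff-grown arm. Over replicates 1 and 2 only, these were 0.14 and -0.31, so which arm of the higher genes had the larger median depended on the third replicate of the 3-week groups. These genes were chosen by their values at 5 weeks, which favors such movements, and the values are descriptions.

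**Figure D4:**
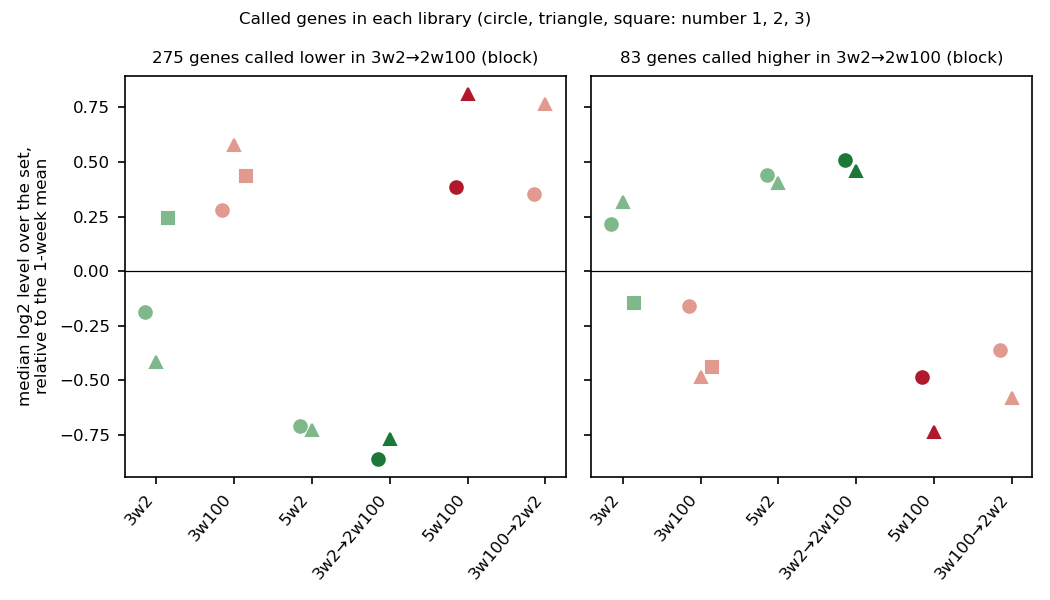
Median log2 level of the 275 lower (left) and 83 higher (right) genes in each library of the 3-week and 5-week groups, relative to the mean of the 1-week groups, with 1 point per library and the shape giving the replicate number. The 3w2→2w100 points lie beside those of 5w2 on both sides, at -0.86 and -0.77 on the left, and 3w2 replicate 3 lies at 0.24, on the other side of 0 from the other 3w2 libraries.

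To ask whether the difference was in place before the switch, genes were chosen at 3 weeks and read 2 weeks later in other libraries. Between 3w2 and 3w100 edgeR called 0 genes, and 863 (6.15%) had an unadjusted p below 0.05. Of these 863 genes, 817 (94.67%) had the same direction between 3w2→2w100 and 5w100, against 70.81% of all tested genes. Their median difference in the direction of week 3 was 0.54 on the log2 scale at 3 weeks and 0.50 after the switch. The larger difference was at the later time in 425 genes (49.25%), against 50.41% of all tested genes. Choosing genes at 3 weeks favors large values at 3 weeks, so the 2 medians do not show whether the difference was stable. An unadjusted p below 0.05 in the same direction was found again for 429 (49.71%), against 12.98% of all genes. Of the 459 genes higher in 3w2, 436 had the same direction later, and of the 404 genes lower in 3w2, 381. Read against 5w100 replicate 1 alone, 762 of the 863 had the same direction, with a median of 0.37, and against 5w100 replicate 2 alone 801, with a median of 0.60. Across all tested genes the differences at 3 weeks and after the switch correlated with r = 0.60. No library was shared between the 2 times, but cultures of the same rats may be in both.

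**Figure D5:**
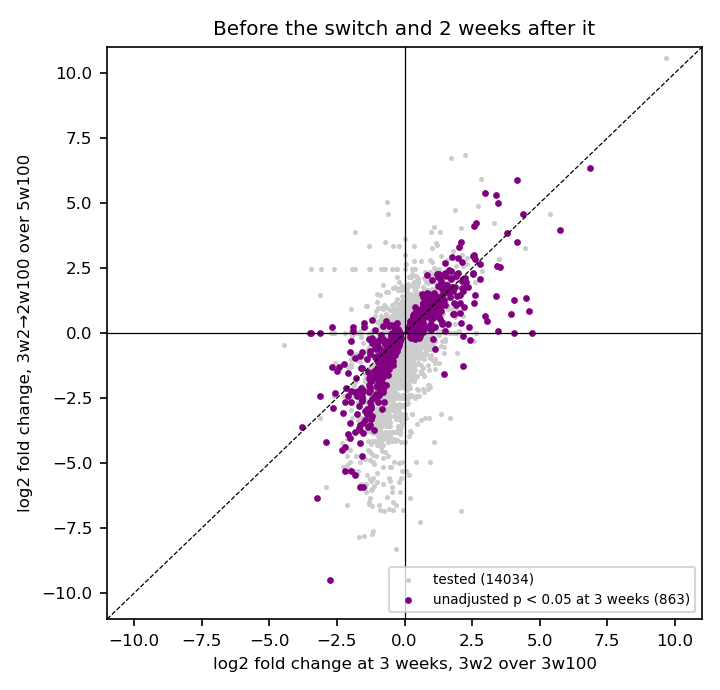
Log2 fold change of 3w2→2w100 over 5w100 (y axis) against that of 3w2 over 3w100 (x axis), with 1 point per tested gene, the 863 genes with an unadjusted p below 0.05 at 3 weeks in purple and the line of equal values dashed. Of the purple points, 817 have the same sign on both axes.

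Genes chosen after the switch showed a different picture of time, as their choice favors. Of the 358 genes called with the block, 354 had the same direction at 3 weeks, against 70.81% of all tested genes. The median size of their difference, in the model without the block, was 0.62 on the log2 scale at 3 weeks and 1.57 after the switch. The difference was larger after the switch in 356 of them, and in 11039 of all 14034 tested genes. The test of the change since the switch called 0 of 14034 genes in edgeR, with 396 (2.82%) at an unadjusted p below 0.05, and 0 with the block, with 591. DESeq2 called 1 gene, which was one of the 7 called lower, with a log2 change of -2.56 and an adjusted p of 0.0242.

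The same priming surfaces were also compared in cells that ended on 2 kPa, 5w2 against 3w100→2w2. edgeR called 25 genes there (0.178%), 20 lower and 5 higher in soft-primed cells, and 354 (2.52%) with the block. All 358 genes called with the block on the stiff surface had the same direction on the soft one, against 81.69% of all tested genes. Their median size was 1.57 on the stiff and 1.47 on the soft surface. The libraries of the 2 comparisons are distinct, but those with the same priming and number deviated together, with r = 0.76 between 3w2→2w100 and 5w2 and r = 0.80 between 5w100 and 3w100→2w2, so the soft surface is no independent repeat. The dependence of the priming difference on the end surface, tested as an interaction, was called for 0 genes by edgeR and 0 by DESeq2, with 50 (0.356%) at an unadjusted p below 0.05 in edgeR. These fits did not model that libraries of the same priming and number deviated together. The share of 0.356% also lies well below the 0.05 that the threshold gives when no gene differs. The 0 calls therefore do not show that the end surface made no difference. The test left room for sizeable differences between surfaces. Over the 358 genes the interaction had a median of 0.06 in the direction of the priming difference, with quartiles of -0.07 and 0.21, and a median SE of 0.60 on the log2 scale.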

How the data were processed

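Rat MSC bulk RNA-seq was analysed in 20 libraries of 8 groups. The table deposited by the authors holds raw counts for Ensembl genes, made with Trim Galore, HISAT2 (genome build rn7) and featureCounts, as listed in the submitters' processing notes. For versions, strand settings and multi-mapping reads, details were not given in the sources used here. Overlapping, antisense and near-identical genes therefore have uncertain counts. Totals were 16127907 to 24139128 per library.

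Counts were fitted in R 4.3.3 with edgeR 4.0.16 (TMM, filterByExpr with minimum count 10 and total 15, quasi-likelihood test, 1 model of 8 groups, no block). Log2 CPM used a prior count of 2. Pairing by replicate number was checked with the correlation of deviations from group means. All 6 pairs of 5-week groups exceeded 0.1 (r from 0.168 to 0.802, and 0.246 for 3w2→2w100 with 5w100), as did same-numbered libraries at 1 week (r from 0.626 to 0.777). At 5 weeks the r between groups of different priming were only 0.168 to 0.246. With 2 libraries a group, crossing the numbers only turns the sign of r, so the 5-week check has no mismatched numbers to compare with. At 3 weeks the r were 0.389, 0.084 and 0.465, and the highest r with another number were -0.177, 0.172 and 0.159. Replicate 2 thus did not pair by number there, although the block on all 20 libraries covers it. The blocked fits, on all libraries and on only those of 5 weeks, are given beside results they change. The pairing comes from the data. DESeq2 1.42.0 was an alternative. The fits were run on simulated data with large changes in well-counted genes and no replicate effect. Such data could not test the block, small differences or genes of low count.

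The comparison, lists and tests were chosen with earlier results of these data known. The rule for named genes took all called genes and genes of large change with a symbol. Lacking symbols, the 2 of smallest p in each direction with at least 10 CPM and no overlap were named, called genes first, a choice made after values were seen. The study's methods describe biological replicates as MSCs of different rats, without saying which number stands for which rat.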

Additional observations from a re-analysis of the deposited data

How the results depend on the processing

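For 3w2→2w100 against 5w100, edgeR called 8 genes. Both RLE factors and a filter on a mean of 10 counts gave 8, and no filter gave 12. The count was 1972 at an unadjusted p, 358 with the replicate block, 245 (157 lower, 88 higher) with the block on only the 5-week libraries, 449 with DESeq2 and 0 on only the groups compared. Leaving out 1 library gave 0 to 193, and with the block 0 to 461 (0 without 5w100 replicate 2, 1 without either 3w2→2w100 library, 461 without 5w100 replicate 1). For 5w2 against 3w100→2w2 the count of 25 became 1900 at an unadjusted p, 354 with the block, 261 with the block on only the 5-week libraries, 449 with DESeq2, 49 without a filter, 0 on only the groups compared and 0 to 76 without 1 library. For the end surface and the change since the switch, all edgeR fits with adjusted p called 0. At an unadjusted p the counts were 50 and 396, with the block 75 and 591, and DESeq2 called 0 and 1. The causes were not tested.

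No alternative turned the direction of any of the 4 named genes. The 3 called ones lost their call on only the groups compared and without 5w100 replicate 2, 3w2→2w100 replicate 1 or 3w2→2w100 replicate 2, and also in the blocked fit without 5w100 replicate 2. The 2 lower ones lost it too in the blocked fits without either 3w2→2w100 library. ENSRNOG00000039048 gained one in 5 of 15 alternatives. Over the alternatives its log2 fold change was 3.60 to 5.41, that of ENSRNOG00000007319 1.04 to 1.19, that of ENSRNOG00000026053 -3.03 to -2.27 and that of ENSRNOG00000052498 -1.44 to -1.27. A library left alone in its group was given the spread of the remaining groups. Counts over lists of named genes were not run, since the identifiers carry no symbols. With 2 libraries a group, small differences could be missed, and a level under about 3 counts per library could not be told from none. The smallest change called with the block was 0.32 in size on the log2 scale. No limit of detection was computed for differences.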
